A study of Mus musculus with 4 samples.

Results

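The genes described here are 9 genes of amino acid transport across the plasma membrane and Asns, the gene of asparagine synthetase. The transport genes are Slc7a5, Slc3a2, Slc7a1, Slc7a3, Slc38a1, Slc38a2, Slc1a4, Slc1a5 and Slc6a9. Among them, Slc3a2 encodes a heavy chain that pairs with carriers. All 10 were chosen by name, with earlier results of these data known. Of the 10, 9 had a probe set assigned to a single gene, among 17097 genes measured in all. Slc1a4 had none and was not analysed here. RNA came from B16F10 cells, a pigmented melanoma line of the C57BL/6 mouse, on 4 Affymetrix arrays. The 2 control samples (control 1 and control 2) were given MilliQ water in place of plumbagin, 0 µM, and the 2 plumbagin samples (plumbagin 1 and plumbagin 2) were given 2 µM plumbagin, a naphthoquinone from plants, both for 24 h. All samples were thus the same line, without any genetic change named in the labels. Nothing in the labels says that samples sharing a treatment came from different cultures. The p-values below therefore set a difference only against the spread between these samples, which may be technical. limma estimates that spread for each gene with help from the spread of all genes.

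Cells take up most amino acids through carriers that either exchange one amino acid for another or couple the uptake to sodium. When amino acids run short, or the endoplasmic reticulum is under stress, phosphorylation of eIF2α raises translation of the transcription factor ATF4, which activates many of these carrier genes and Asns. ATF4 binds with a C/EBP partner at a composite element, and the element in the Asns promoter is one of the classical examples. Melanoma cells, like other fast-growing tumour cells, are known to depend on carriers of leucine and glutamine.

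The Asns promoter is shown because it carries that element and because Asns was among the genes whose plumbagin and control values did not overlap. RefSeq promoter windows of GRCm38.p6, each from 250 bases before to 50 after a transcript start, were found for 6 of the 10 genes, 9 windows in all. Slc7a5, Slc38a1, Slc1a5 and Slc7a3 had no entry. The 250 bases before the Asns start are at chr6:7693210-7693459, on the minus strand. The stretch around the Slc1a4 start is at chr11:20332704-20332743, also on the minus strand, and is shown for comparison of the element alone. Capitals mark matches to the letters TGATGNAA, read on either strand.

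Asns: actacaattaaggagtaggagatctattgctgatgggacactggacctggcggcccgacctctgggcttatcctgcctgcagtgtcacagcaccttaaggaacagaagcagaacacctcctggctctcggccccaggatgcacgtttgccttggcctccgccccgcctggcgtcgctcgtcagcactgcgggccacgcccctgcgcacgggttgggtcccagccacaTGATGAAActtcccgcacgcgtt

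Slc1a4: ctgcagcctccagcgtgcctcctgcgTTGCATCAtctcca

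The Asns match lies on the strand of the gene, from position -23 to -16 before the start. The Slc1a4 match lies on the opposite strand, from -4 to 4, across the start. The windows of Slc3a2, Slc7a1, Slc38a2 and Slc6a9 held no match to these letters. Sequence outside the windows was not searched, so an element elsewhere in these genes would be missed. Of all 32851 windows in the table, 3.97% held a match on either strand. The E-box CACGTG, the palindromic element of MYC and MAX, was in 0 of the 9 windows and in 7.15% of all windows. A match describes the letters of a window and nothing about binding in these cells.

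After plumbagin, 6 of the 9 measured genes had a lower mean than in the controls and 3 had a higher one. None passed the test, limma with Benjamini-Hochberg adjustment over all genes (adjusted p = 1 for each of the 9). The lower 6 were Slc6a9, Slc1a5, Slc3a2, Asns, Slc7a5 and Slc7a1, with differences from -0.37 to -0.12 on the log2 scale. The others, Slc38a2, Slc38a1 and Slc7a3, differed by 0.029, 0.018 and 0.014, and the sign of Slc38a1 turned when its probe sets were averaged (-0.065) and that of Slc7a3 after repeated quantile (-0.0096) or cyclic loess normalization (-0.0077). All 3 also changed sign with some arrays left out, Slc38a2 to -0.11 without plumbagin 2. Of all 17097 genes limma called 0 (0%), with 169 at an unadjusted p under 0.05. Slc6a9 was the only one of the 9 among those 169. With 2 arrays per group the intervals were wide, and 8 of the 9 genes had a 95% interval that included 0.

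The share of genes with a lower mean was 55.2% among all genes. Bright genes were lower more often, so a second background was taken from the 3573 genes whose mean lay within the range of the 8 measured members above background, 7.52 to 11.23. Among them 66.4% had a lower mean, against 6 of the 8 members that lie in this range, which leaves out Slc7a3. A count of 6 in 8 genes is near that share. The 2 plumbagin values were each lower than either control value for 3 of the 9 genes, Slc6a9, Slc7a5 and Asns, against 15.2% of all genes. The same 3 were among the 8 in the brightness range, where the share was 17.7%. No member had both plumbagin arrays above both controls, which held for 10.2% of all genes. With 1 array left out, fewer values have to separate and the share rises for all genes too. Without control 1 the count was 5, against 28.2% of all genes and 35% in the brightness range. Without plumbagin 2 it was 8, against 34.9% and 47.8%. Without control 2 it was 3, against 39.9% and 46.9%. Without plumbagin 1 it was 4, of which 3 lay in the brightness range, against 36.2% and 31.4%. The members' count thus depended on which array was left out.

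Slc7a5 encodes LAT1, the exchanger that brings leucine and other large neutral amino acids into the cell. Its log2 values were 10.60 in control 1, 10.50 in control 2, 10.35 in plumbagin 1 and 10.47 in plumbagin 2. Both plumbagin values were below both controls, but plumbagin 2 lay only just below control 2. The difference between the means was -0.14 ± 0.094 (log2, SE, n = 2 per group), 1.10-fold lower, with a 95% interval from -0.39 to 0.12. It was -0.076 without plumbagin 1 and -0.082 without control 1.

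Slc3a2 encodes CD98hc, the heavy chain that pairs with LAT1 and related light chains and takes them to the membrane. Its log2 values were 10.33 and 10.45 in controls 1 and 2 and 10.06 and 10.42 in plumbagin 1 and 2. Plumbagin 1 was the lowest array and plumbagin 2 lay between the controls, so the groups overlapped. The difference was -0.15 ± 0.15 (log2, SE), with an interval from -0.55 to 0.25, and it was 0.026 without plumbagin 1. The partners Slc7a5 and Slc3a2 thus had like mean differences, but their controls were in opposite order, with control 1 above control 2 by 0.11 for Slc7a5 and below it by 0.12 for Slc3a2.

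Slc7a1 encodes CAT1, the main carrier of arginine and lysine in most cells. Its values were 10.32 and 10.46 in controls 1 and 2 and 10.05 and 10.50 in plumbagin 1 and 2. The plumbagin arrays were the lowest and the highest of the 4. The difference was -0.12 ± 0.18 (log2, SE), and it turned to 0.11 without plumbagin 1. Slc7a3 encodes CAT3, a related cationic carrier. It was near the lower end of the scale on every array, 4.06 and 3.98 in the controls and 4.09 and 3.97 in plumbagin 1 and 2, below the background level of 5.05, the 95th percentile of 41 odorant receptor genes. A difference in Slc7a3 could therefore not be read from these arrays.

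Slc38a1 and Slc38a2 encode SNAT1 and SNAT2, sodium-coupled carriers of glutamine, alanine and other small neutral amino acids. Slc38a1 had values of 9.67 and 9.95 in controls 1 and 2 and 9.53 and 10.13 in plumbagin 1 and 2. Array 1 was below array 2 in both groups, by 0.28 in the controls and by 0.60 with plumbagin. The difference between treatments was 0.018 ± 0.24 (log2, SE), with the widest interval among the 9, from -0.62 to 0.66. It was -0.12 without control 1 and -0.28 without plumbagin 2. Slc38a2, the member of this pair best known as an ATF4 target, had values of 10.03 and 10.24 in the controls and 10.03 and 10.30 with plumbagin. Its plumbagin values lay almost on those of the control with the same number, and the difference was 0.029 ± 0.14 (log2, SE). It was below 0 without control 1 (-0.078) and without plumbagin 2 (-0.11).

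Slc1a5 encodes ASCT2, an exchanger of glutamine, serine and other neutral amino acids. Its values were 8.04 and 8.15 in controls 1 and 2 and 7.48 and 8.08 in plumbagin 1 and 2. Plumbagin 1 stood apart from the other 3 arrays, and plumbagin 2 lay between the controls. The difference was -0.31 ± 0.22 (log2, SE), 1.24-fold lower, with an interval from -0.90 to 0.28. Without plumbagin 1 it was -0.013, and without plumbagin 2 it was -0.61.

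Slc6a9 encodes GLYT1, a sodium- and chloride-dependent carrier of glycine. Its values were 7.70 and 7.71 in controls 1 and 2 and 7.18 and 7.49 in plumbagin 1 and 2. The controls were nearly equal and both plumbagin arrays lay well below them. The difference was -0.37 ± 0.13 (log2, SE), 1.29-fold lower, with an interval from -0.72 to -0.019. The limma p was 0.0426 before and 1 after adjustment over all genes. Before adjustment, the limma p of this probe set ran from 0.0280 with the replicate number as a block to 0.0904 with an eBayes trend. All arrays were kept in these fits, and the interval thus included 0 under some settings. Of all genes, 0.842% had a more negative difference. Without plumbagin 1 it was -0.21 and without plumbagin 2 it was -0.52.

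Asns encodes asparagine synthetase, which makes asparagine from aspartate with glutamine as the nitrogen donor. Its values were 11.28 and 11.31 in controls 1 and 2 and 11.06 and 11.26 in plumbagin 1 and 2. The plumbagin values were both below the controls, plumbagin 2 by a small margin. The difference was -0.14 ± 0.10 (log2, SE), 1.10-fold lower, with an interval from -0.41 to 0.14 which corresponds to changes from -24.7% to 9.90%. Without plumbagin 1 the difference was -0.040, and without plumbagin 2 it was -0.23.

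**Figure D1:**
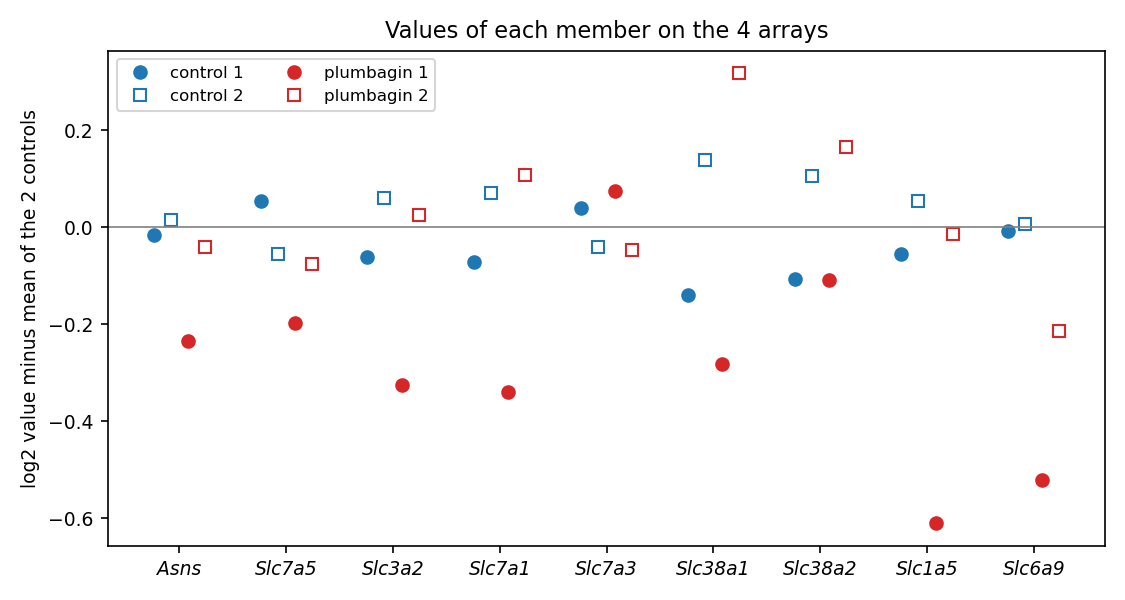
Log2 value of each measured member on each of the 4 arrays, minus the mean of the 2 controls of that gene (y axis, log2). Blue points are controls and red points plumbagin, filled for number 1 and open for number 2. Plumbagin 1 is the lowest array for 8 of the 9 genes, for Slc38a2 almost level with control 1. The plumbagin points lie below both controls for Asns, Slc7a5 and Slc6a9.

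**Figure D2:**
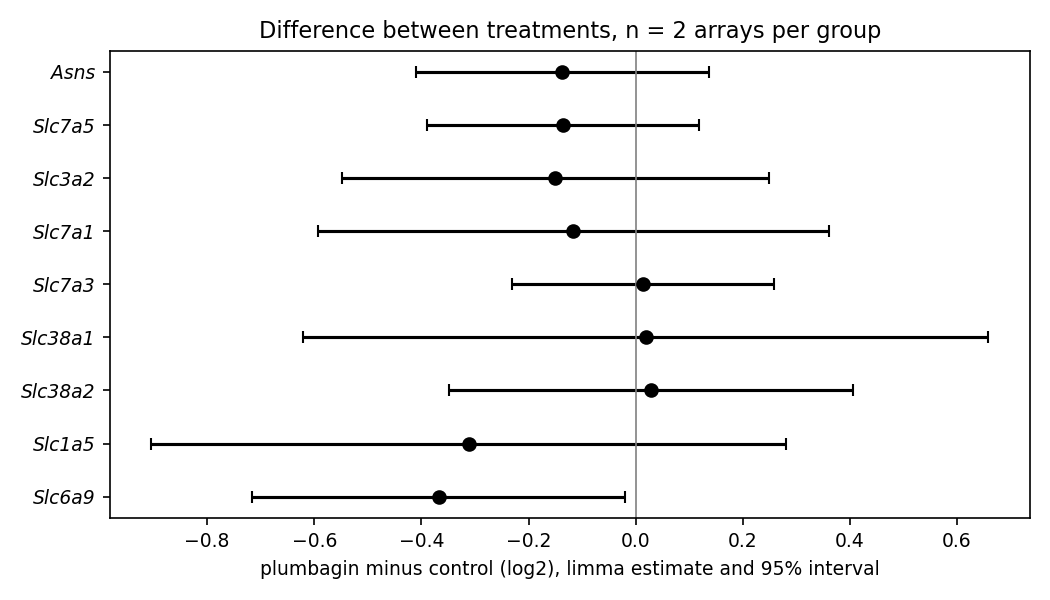
Difference between the plumbagin and control means of each member (x axis, log2) as estimated by limma, with 95% intervals, n = 2 arrays per group. In the fit shown, the interval of Slc6a9, from -0.72 to -0.019, is the only one that leaves out 0, which did not hold under every setting. The signs of Slc38a1 (0.018) and Slc7a3 (0.014) turn under other settings, to -0.065 with probe sets averaged and to -0.0096 with repeated quantile normalization.

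Within each replicate number, the differences of the genes above background were more negative in the arrays with number 1. Plumbagin 1 minus control 1 was -0.56 for Slc1a5, -0.51 for Slc6a9, -0.27 for Slc7a1, -0.26 for Slc3a2, -0.25 for Slc7a5, -0.22 for Asns and -0.14 for Slc38a1. For Slc38a2 it was -8.0e-04, so that gene counts as lower in number 1 by a hair only. Plumbagin 2 minus control 2 was -0.22 for Slc6a9, -0.067 for Slc1a5, -0.055 for Asns, -0.035 for Slc3a2 and -0.021 for Slc7a5, while it was 0.036 for Slc7a1, 0.058 for Slc38a2 and 0.18 for Slc38a1. Slc6a9 had the most negative value in number 2 and the next to most negative in number 1. Each of the 8 genes above background had a lower difference in number 1 than in number 2. The share of all genes for which this held was not counted. The median over all genes of like brightness, defined above, was also lower in number 1, at -0.12 against -0.0013. With 1 array per treatment and number, the change between numbers was not tested.

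In number 1, 8 of the 9 genes were lower with plumbagin, against 55.5% of all genes, and so were 8 of the 8 in the brightness range, against 70.6% there. In number 2, 6 of the 9 were lower, against 51.5% of all genes, and 5 of the 8 in the brightness range, against 50.6%. The median over the 8 genes in that range was -0.26 in number 1 and -0.028 in number 2, while the median over all genes in it was -0.12 and -0.0013. Over both numbers the median was -0.14 for the 9 genes, against -0.012 for all genes, and -0.14 for the 8, against -0.054 in the brightness range. For the 9 genes it was -0.013 without plumbagin 1 and -0.28 without plumbagin 2.

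Plumbagin 1 was the lowest of the 4 arrays for 8 of the 9 genes, against 29.8% of all genes, and for 8 of the 8 in the brightness range, against 44.5% there. For Slc38a2, plumbagin 1 lay only just below control 1, at 10.028 against 10.0288. It was also the lowest array for 8 of the 10 melanocyte markers used to check the cell type. That array also stood apart in its hybridization spike-ins, bacterial and phage transcripts added to the sample, which were highest there in 18 of 18 probe sets. Their mean log2 value was 9.58 on plumbagin 1, 8.46 and 8.77 on controls 1 and 2, and 8.67 on plumbagin 2. The upper quartile of all probe sets was 6.26 on plumbagin 1 and 6.34 to 6.36 on the others. The part of these in the members' differences was not tested. Between the arrays of one treatment the members also differed. The plumbagin arrays lay further apart than the treatment means for 7 of the 9 genes, and the control arrays did so for 4. Neither count was taken over all genes, so these are not set against a background. Control 1 was below control 2 for 7 of the 8 genes above background. It was above control 2 for the remaining 1, against 10115 of the 17097 genes and 1967 of the 3573 in the brightness range.

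**Figure D3:**
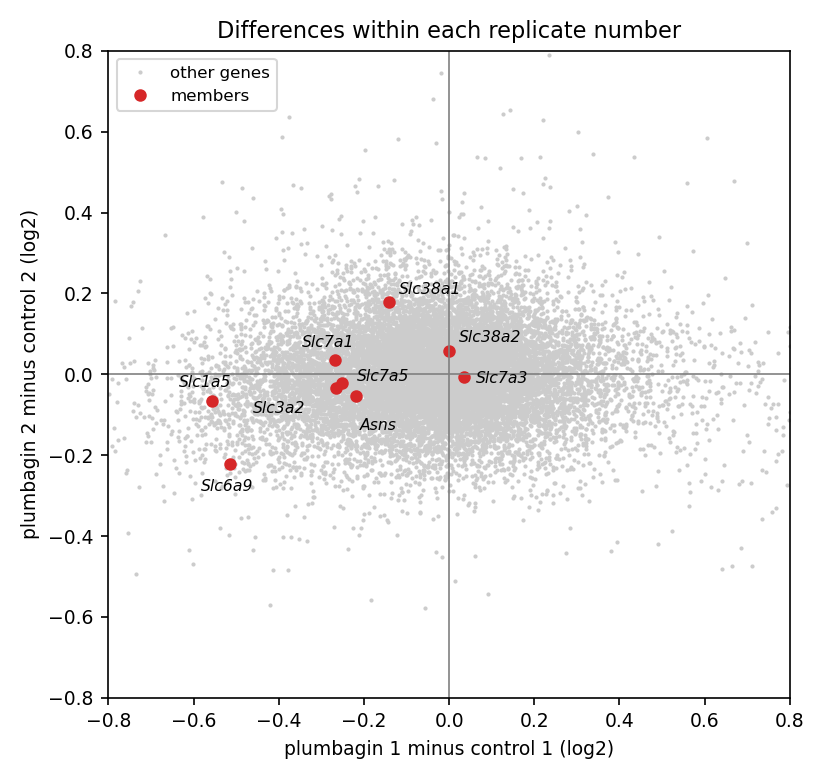
Plumbagin minus control in the arrays with number 1 (x axis, log2) against the same in those with number 2 (y axis, log2), for every gene (grey) and the 9 members (red). The members above background spread to the left, down to -0.56 for Slc1a5, but lie between -0.22 and 0.18 on the y axis, and 114 genes fall outside the plotted range of 0.8 in either direction. The sign of Slc7a3, near the origin, turns with another normalization.

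The 9 genes had 16 probe sets, and 5 genes had more than 1. Means were lower in 10 of the 16, against 54.5% of all 28898 probe sets, and in 5 of them both plumbagin values were under both control values, against 14.8%. Slc38a1 gave unlike answers: its second probe set had values of 9.17 and 9.15 in controls 1 and 2 and 8.90 and 9.13 with plumbagin. There the plumbagin arrays were both below the controls (difference -0.15 ± 0.11, log2, SE), while the brighter probe set differed by 0.018. The brighter one carries the suffix s_at, which Affymetrix gives to sets whose probes match more than 1 transcript. The second Slc6a9 probe set, close to the background level, had values of 5.25 and 5.14 in the controls and 5.12 and 5.04 with plumbagin. They too were lower in both plumbagin arrays, with a smaller difference of -0.12 ± 0.089 (log2, SE).

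The second Slc7a1 probe set differed by -0.18 ± 0.12 (log2, SE), near the -0.12 of the first. The third, below background, differed by 0.026. All 3 Slc38a2 probe sets had higher means with plumbagin, by 0.029, 0.049 and 0.24, and in the dimmest of them both plumbagin arrays (5.92 and 5.82) lay above both controls (5.51 and 5.75). The second Slc1a5 probe set was below background and differed by -0.024. None of the 16 passed in a fit over all probe sets (limma adjusted p = 1 for each). Slc7a5, Slc3a2, Slc7a3 and Asns had 1 probe set each, so no second reading was at hand.

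**Figure D4:**
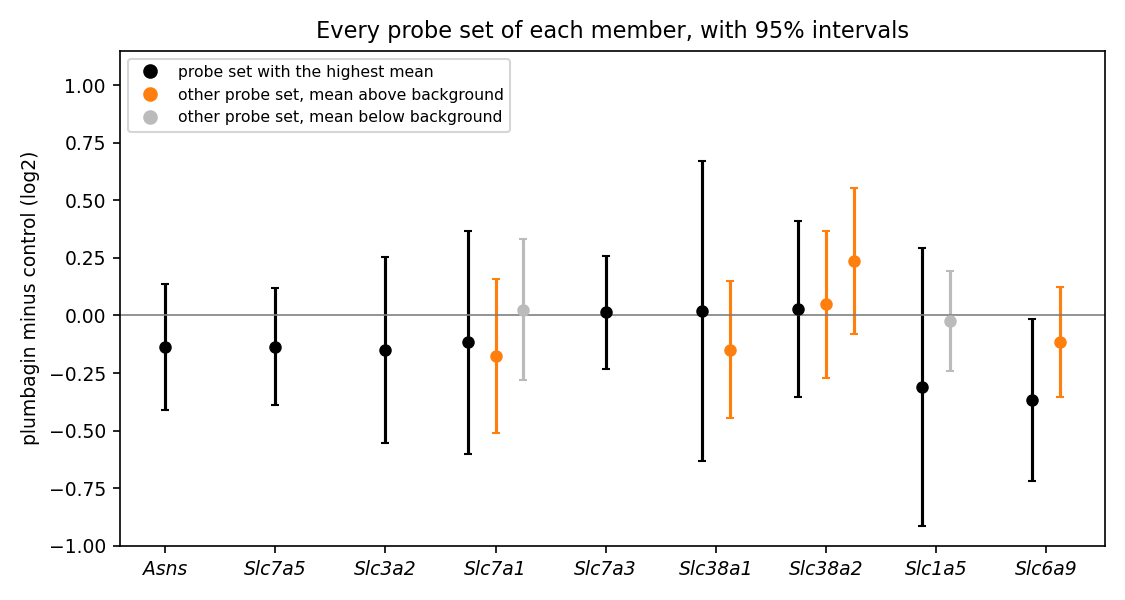
Difference between plumbagin and control means (y axis, log2) for each of the 16 probe sets of the 9 measured members, with 95% intervals, n = 2 arrays per group. Black marks the probe set with the highest mean, orange other sets above background and grey other sets below it. The Slc38a1 sets lie on opposite sides of 0, and the 3 Slc38a2 sets all lie above it.

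Other carriers of amino acids were listed beside the members. Of 43 other plasma membrane and lysosomal carriers, 40 were measured and 16 were above background. Means were lower for 26 (65%) and higher for 14, with a median difference of -0.030, and 0 were called by limma (0 at an unadjusted p under 0.05). The share with a lower mean was 55.2% of all genes and 65.1% of those above background. The 4 with the smallest p were Slc38a6, Slc1a2, Slc38a7 and Slc36a3. Slc38a7, a lysosomal exporter of glutamine and asparagine, had values of 6.83 and 6.83 in the controls and 6.22 and 6.70 with plumbagin. Its difference of -0.37 ± 0.18 (log2, SE) was close in size to that of Slc6a9, and plumbagin 1 again was the lowest array. Slc38a6 differed by 0.21 ± 0.086, with means just above background, while the means of the glutamate carrier Slc1a2 and of Slc36a3 were below background.

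Of 21 genes of asparagine, aspartate and glutamine metabolism, 17 were measured. Means were lower for 13 (76.5%) and higher for 4, with a median of -0.11, and limma called 0 (0 at an unadjusted p under 0.05). Of the 17, 15 were above background, where 65.1% of all genes had a lower mean and the median was -0.051. Ppat, which starts purine synthesis with nitrogen from glutamine, differed by 0.17 ± 0.083 (log2, SE), and Pfas, a later enzyme of the same pathway, by -0.27 ± 0.16. The mitochondrial alanine aminotransferase Gpt2 differed by -0.23 ± 0.14 and Nit1 by -0.16 ± 0.10. For Pfas, Gpt2 and Nit1, control 1 stood above control 2 by 0.39, 0.32 and 0.20, more than the difference between treatments.

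Amino acid sensing by mTORC1 and by the kinase GCN2 was followed in 33 measured genes of 39. Means were lower for 21 (63.6%) and higher for 12, with a median of -0.078, and limma called 0 (1 at an unadjusted p under 0.05, Gcn1). Of the 33, 30 were above background, where 65.1% of all genes had a lower mean. Gcn1, the ribosome-bound activator of GCN2, had values of 6.99 and 6.70 in controls 1 and 2 and 6.46 and 6.47 in plumbagin 1 and 2. The plumbagin arrays were close together and below both controls, with a difference of -0.38 ± 0.12 (log2, SE). Flcn, which activates RagC and RagD at the lysosome, differed by -0.33 ± 0.20, Itfg2 of the KICSTOR complex by -0.32 ± 0.18, and Depdc5, a GATOR1 subunit that restrains mTORC1, by 0.19 ± 0.078. Among all 3 lists, plumbagin 1 was the lowest array for 13 of 40, 7 of 17 and 21 of 33 genes. The share was 29.8% of all genes and 41.7% of those above background.

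Genes like Asns were sought among non-members above background with a named locus (no Gm, Rik, LOC or BC symbol). The measure was the root mean square distance between log2 values centred on each gene's own mean over the 4 arrays. The nearest were Fbxw11, Nup210, Atp9a, Ube2q1 and Gtpbp6. Their distances were 0.0016 for Fbxw11 and 0.0080 to 0.0084 for the others. By the same measure Asns was at 0.056 from Slc7a5 and 0.065 from Slc3a2, while Slc7a5 and Slc3a2 were at 0.116 from each other. Slc7a1 and Slc3a2 were closer, at 0.038. Slc1a5 and Slc6a9 were at 0.111, and Slc38a1 and Slc38a2 at 0.118. Only chosen pairs of members were measured, and pairs of other genes were not, so these distances have no background. With only 4 arrays these distances are a description.

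The labelled cell type was checked against its markers. All 10 melanocyte markers were above background, with Tyrp1 (12.32 in the controls), Pmel (12.14) and Dct (12.12) near the top of the scale. With plumbagin, 10 of the 10 markers were lower in number 1 and 3 of the 10 in number 2. Of the 8637 genes above background, 5969 were lower in number 1 and 4378 in number 2. The markers' means were lower in 9 of 10, against 65.1% of genes above background. Their median was -0.054, near the -0.051 of those genes. Of the markers of fibroblasts, leukocytes, keratinocytes and endothelial cells, 0 of 6, 1 of 5, 0 of 5 and 1 of 5 measured genes were above it, the exceptions being Cd3e (6.21 in the controls) and Kdr (5.12). In bulk RNA a smaller number of cells and less RNA per cell cannot be told apart.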

How the data were processed

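Total RNA was labelled with biotin and read on Affymetrix mouse array strips, per the labels' protocols. What the authors deposited is a log2 value for each probe set on each array. The submitters' processing notes name RMA, the Transcriptome Analysis Console and Affymetrix Expression Console, and which versions were run is not given in the sources used here. Since RMA makes the arrays' distributions more alike, a shift of most genes would be reduced, and small signals are compressed. The deposited distributions were not fully alike, with an upper quartile of 6.26 on plumbagin 1 against 6.34 to 6.36 on the others. Of the genes above background, 65.1% had a lower mean with plumbagin. The number of arrays limits the precision.

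Of 45141 probe sets, 28898 were assigned to 1 gene symbol by the platform annotation, which can be old. Symbols were updated through the Entrez number with a RefSeq table of GRCm38.p6. For a gene with several probe sets, the brightest by mean stood for it. Groups and numbers came from the sample titles. limma 3.58.1 in R 4.3.3 (lmFit, eBayes, no covariates, two-sided) was run on all 17097 genes with Benjamini-Hochberg adjustment at 0.05. The code was checked on simulated data with independent noise and no effect of array or replicate number. That check required a share of calls only for changes far larger than those of the members, so it does not show that such small differences would be called. Alternatives covered probe set choice, a filter on dim genes, normalization, eBayes options, the replicate block and leaving out each array. The members and gene lists were chosen with earlier results of these data known. Named genes were all members, up to 4 of each other list by smallest p, and the 5 genes most like Asns. Cd3e and Kdr were named after their values were seen.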

Additional observations from a re-analysis of the deposited data

How the results depend on the processing

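Under each of 13 alternatives limma called 0 genes, with 25 to 973 at an unadjusted p under 0.05, and the smallest adjusted p of a member was 0.792. With all arrays kept, Slc6a9, Slc1a5, Slc3a2, Asns and Slc7a5 had lower means under every alternative, and Slc7a1 had a lower mean except in the dimmest of its probe sets (0.026). Counted over the 16 probe sets rather than 9 genes, 10 had a lower mean and 5 had both plumbagin arrays below both controls (54.5% and 14.8% of all probe sets). The sign of Slc38a1 turned with its probe sets averaged (-0.065) and in its second probe set (-0.15), and that of Slc7a3 with repeated quantile (-0.0096) and cyclic loess normalization (-0.0077). With arrays left out in turn, the count without overlap in the lower direction ran from 3 to 8 of 9, while the share of all genes ran from 28.2% to 39.9%. The differences ran from -0.28 to 0.32 for Slc38a1, -0.11 to 0.17 for Slc38a2, -0.33 to 0.026 for Slc3a2, -0.34 to 0.11 for Slc7a1 and -0.047 to 0.074 for Slc7a3. An array left alone in its group was given the spread of the other group. The cause was not tested.

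With the replicate number as a block, the replicate block left the members' median at -0.14 and the calls at 0, and took the genes at an unadjusted p under 0.05 from 169 to 434. Across all genes, control 1 minus control 2 correlated with plumbagin 1 minus plumbagin 2 (r = 0.54, genes are not independent). The labels give only a shared number.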
